A study of Mus musculus with 10 samples.

Results

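Ubb and Rps27a, both of which encode ubiquitin, were followed in RNA sequencing of whole mouse testis at postnatal day 10. They are 2 of 30719 genes in the count table and were found by their gene names. They were selected on their CPM (the count of a gene relative to its library's total, in the usual unit, after TMM scaling) in both genotypes, so their difference between genotypes is described here and not tested. The study compared 5 wild-type mice with 5 mice lacking FXRα (FXR-/-), the bile acid receptor encoded by Nr1h4, and asked which testicular transcripts differ without the receptor. Mice of both genotypes were of mixed 129sv and C57Bl background, each library came from 1 mouse, and all libraries ran on 1 flowcell. No other treatment is labelled, and the extent of the Nr1h4 deletion is not labelled. Libraries are named below by the number in their title, which is 3, 4, 5, 6 or 9 in wild type and 8 to 12 in knockout.

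Ubiquitin is a small protein that cells attach to other proteins, often to mark them for the proteasome. It is not made as a single protein. A polyubiquitin gene such as Ubb encodes ubiquitins joined head to tail, a fusion gene such as Rps27a encodes a ubiquitin joined to a ribosomal protein, and proteases called deubiquitinases cut the precursors into free ubiquitin. Ubb matters in the testis, where male mice without it do not complete meiosis, while the other product of Rps27a is eS31, a protein of the small ribosomal subunit.

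Both genes lie on chromosome 11 of GRCm38, the build the submitters call mm10. Ubb (ENSMUSG00000019505) spans 62551171 to 62553213 on the plus strand. Its full-length transcript has 2 exons, and exon 2 holds the whole reading frame of 305 codons from 62552146 to 62553060. A search of that frame in windows of 76 codons found 4 ubiquitins in tandem with 1 codon left over. Rps27a (ENSMUSG00000020460) spans 29545846 to 29548109 on the minus strand. Its frame of 156 codons is spread over 5 exons and holds 1 ubiquitin, followed by 80 codons of the ribosomal protein.

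All 5 stretches encode the same 76 residues in different bases, which sets how far reads can be assigned to 1 gene. They are shown 5′ to 3′ from the GENCODE M21 transcripts for the first and last repeat of Ubb and for Rps27a, with capitals where a base differs from the first repeat of Ubb.
Ubb repeat 1 (chr11:62552146-62552373): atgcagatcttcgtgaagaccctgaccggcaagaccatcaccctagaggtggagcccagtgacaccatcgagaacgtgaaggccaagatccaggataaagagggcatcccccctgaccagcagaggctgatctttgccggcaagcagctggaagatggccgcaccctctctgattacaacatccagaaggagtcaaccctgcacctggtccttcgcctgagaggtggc
Ubb repeat 4 (chr11:62552830-62553057): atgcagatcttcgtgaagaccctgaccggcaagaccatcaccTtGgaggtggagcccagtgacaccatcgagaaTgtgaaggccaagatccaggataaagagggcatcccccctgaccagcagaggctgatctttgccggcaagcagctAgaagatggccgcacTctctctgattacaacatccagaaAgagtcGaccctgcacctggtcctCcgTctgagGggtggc
Rps27a ubiquitin part: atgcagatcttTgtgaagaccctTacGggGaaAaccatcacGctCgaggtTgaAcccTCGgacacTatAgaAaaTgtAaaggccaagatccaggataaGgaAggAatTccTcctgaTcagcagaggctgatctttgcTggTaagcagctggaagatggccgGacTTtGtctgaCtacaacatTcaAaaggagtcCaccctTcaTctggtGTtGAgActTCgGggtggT

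Within Ubb the repeats differed at 2 to 10 of 228 bases. Rps27a differed from each of the 4 repeats at 44 bases (80.7% identity), and 38 of the 44 differences from the first repeat were at the third position of a codon. The longest stretch that Rps27a shares with the first repeat was 20 bases, and no window of 50 bases was common to both genes.

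Other genes share more with them. Among windows of 50 bases along the full-length transcripts, 61.0% of those of Ubb and 71.9% of those of Rps27a also occur in a GENCODE transcript of another gene. In the ubiquitin part the shares were 77.1% for Ubb and 100% for Rps27a. The genes that share windows with Ubb number 5, of which 4 are pseudogenes, and all 14 that share windows with Rps27a are pseudogenes. The 3 Ubb pseudogenes in the count table together held 15 to 30 counts per library, and the 11 Rps27a pseudogenes in it held 46 to 102, at most 0.771% of the counts of Rps27a. Rps27a-ps2 held 0 or 1 count in each library. The first 160 bases of the annotated span of Rps27a also overlap Clhc1 on the opposite strand. These bases lie upstream of exon 1 of the full-length coding transcript, and Clhc1 held 31 to 89 counts. How reads with several alignments were counted, and whether strand was used, is not given in the sources used here, so the levels of Ubb and Rps27a are uncertain to that extent, and the part of this in their difference between genotypes was not tested.

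Depth was 32330029 to 39655170 counts per library. Nr1h4 lay near the detection limit, with 15, 15, 13, 14 and 26 counts in wild-type libraries 3, 4, 5, 6 and 9 and 8, 9, 11, 11 and 13 in knockout libraries 8 to 12. Of 18559 tested genes, 2576 (13.9%) differed between genotypes at an edgeR adjusted p under 0.05, with 1146 (6.17%) higher and 1430 (7.71%) lower in knockout. The share of higher genes among them was 44.5%, against 61.5% when libraries were scaled by their totals alone. The count fell to 1427 without knockout library 11, 1601 without wild-type library 4 and 1635 without knockout library 12. At an unadjusted p under 0.05 by edgeR, 5562 of the 18559 genes differed, 2774 higher and 2788 lower. DESeq2 with adjustment called 3502 of 20586 genes, 1553 higher and 1949 lower. The list counts below at these 2 thresholds are to be read beside these larger backgrounds. No gene of any marker list was at 0 in all 10 libraries. This held for skeletal muscle markers too (summed 6.14 to 9.47 CPM in wild type), so it does not speak to tissue identity. Several lists moved with genotype. Of 14 Sertoli cell markers 8 fell, with a summed level of 5379 to 6473 CPM in wild type and 3530 to 5113 in knockout. Of 8 Leydig cell markers 3 fell, with sums of 790.1 to 1055 and 527 to 910.3 CPM. Of 12 markers of epididymis and rete testis 11 rose, with sums of 84.0 to 108 and 145 to 259 CPM, and of 11 adipocyte markers 8 rose, with sums of 77.5 to 220.3 and 211 to 1268 CPM. Of 18 germ cell markers 3 rose (16.7% called, near the 13.9% of all tested genes), and their sums of 1695 to 2849 and 2361 to 3185 CPM overlapped. Of 10 peritubular and vessel markers 1 rose and 1 fell. In whole testis, fewer cells of a type and less RNA per cell cannot be told apart, and the part of these shifts in the levels of Ubb and Rps27a was not tested.

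Ubb was slightly lower in knockout testis. It stood at 294, 283, 304, 307 and 309 CPM in wild-type libraries 3, 4, 5, 6 and 9, and at 287, 287, 272, 274 and 276 CPM in knockout libraries 8 to 12. The groups overlapped, since wild-type library 4 lay below knockout libraries 8 and 9, while knockout libraries 10, 11 and 12 lay below every wild-type value. The means were 299 ± 10.7 CPM in wild-type mice and 279 ± 7.24 CPM in knockout (SD over 5 mice per genotype). The fitted log2 fold change of knockout over wild type was -0.10 (SE 0.037), a level lower by 1.07-fold. Values that did not overlap and were lower in knockout were found in 6.44% of tested genes, and Ubb was not among them. Among all tested genes 59.0% had a larger fitted change in either direction. The coefficient of variation of Ubb between mice was 3.58% in wild type and 2.60% in knockout, both above the counting error of about 1.01% at 9829 counts in wild-type library 4.

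Rps27a moved the other way. It stood at 297, 259, 270.4, 267 and 283 CPM in wild-type libraries 3, 4, 5, 6 and 9, and at 329, 311, 314, 344 and 331 CPM in knockout libraries 8 to 12. All 5 knockout values lay above all 5 wild-type values, with a gap of 14.1 CPM between wild-type library 3 and knockout library 9. Values that did not overlap and were higher in knockout were found in 5.12% of tested genes, a share set beside this as description only, since Rps27a was chosen with this contrast in view. The mean of 5 mice was 275.2 CPM in wild type, with a coefficient of variation of 5.45%, and 326 ± 13.6 CPM (SD) in the 5 knockout mice, with one of 4.18%, a 1.18-fold difference (log2 fold change 0.24, SE 0.046). Among all tested genes 27.03% had a larger fitted change in either direction.

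**Figure D1:**
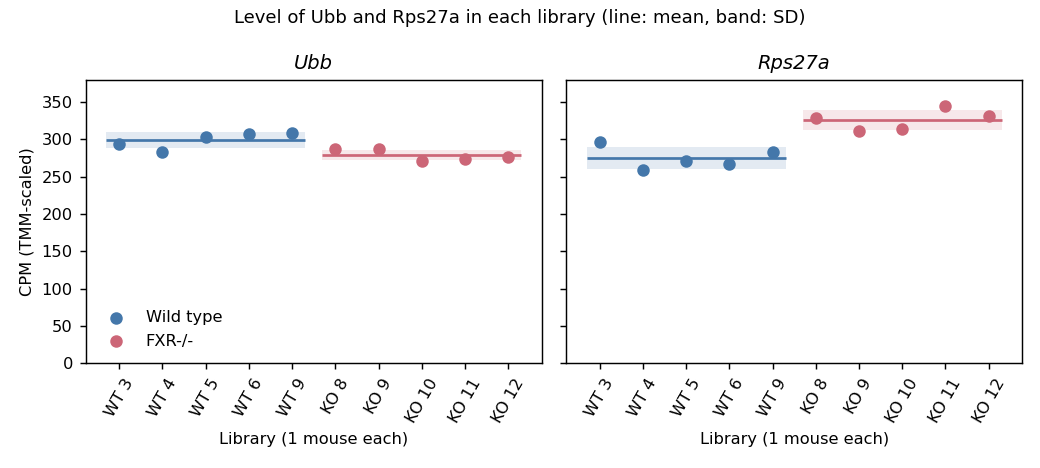
Level of Ubb (left) and Rps27a (right) in CPM on the vertical axis for each of the 10 libraries on the horizontal axis, with the mean as a line and the SD as a band for each genotype. Ubb ranged from 283 to 309 CPM in wild type and from 272 to 287 CPM in the knockout, with overlap, and Rps27a from 259 to 297 and from 311 to 344 CPM, without overlap.

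The order of the genes in raw counts changed with genotype. Ubb held 1.09 ± 0.0604 counts per count of Rps27a in wild type and 0.858 ± 0.0471 in knockout (SD over 5 mice per genotype), and every wild-type value, from 0.992 to 1.15, lay above every knockout value, from 0.796 to 0.923. The sum of both genes was 574 ± 20.4 CPM in wild type and 605 ± 13.4 CPM in the knockout (SD over 5 mice per genotype), and these ranges overlapped.

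A comparison of levels between the genes needs their lengths, and its outcome depended on which length was taken. Over all annotated exons (1675 bases for Ubb and 1972 for Rps27a, most of them outside its full-length coding transcript) the ratio of Ubb to Rps27a in counts per kb was 1.28 ± 0.0711 in wild-type mice and 1.01 ± 0.0555 in knockout mice (SD over 5 mice per genotype). Over the full-length coding transcripts (1499 and 637 bases), a length chosen after seeing the data, it was 0.463 ± 0.0257 and 0.365 ± 0.0200. Over coding bases (915 and 468) it was 0.557 ± 0.0309 and 0.439 ± 0.0241. Ubb was therefore the higher of the pair per length in wild type by the first measure and the lower by the others, while the ratio was lower in knockout by all of them. Each Ubb transcript carries 4 ubiquitins and each Rps27a transcript 1. Counted in encoded ubiquitins, Ubb supplied 5.13 ± 0.284 per ubiquitin of Rps27a in wild type and 4.04 ± 0.222 in knockout over annotated exons, and 1.85 ± 0.103 and 1.46 ± 0.0801 over the coding transcripts (SD over 5 mice per genotype). By either length Ubb transcripts encoded more ubiquitin than those of Rps27a. The sum of encoded ubiquitins of both genes, over annotated exons, was 854 ± 28.3 units of CPM per kb in wild-type mice and 832 ± 16.7 in knockout mice (SD over 5 mice per genotype). This difference was smaller than the spread between wild-type mice, and the ranges overlapped. The sum was not taken over coding transcripts or coding bases, where Rps27a, the gene that was higher in knockout, weighs more. The lower mean in knockout therefore holds for annotated exons only, and the direction may turn with the length taken. By counts per kb of annotated exon, Ubb ranked 85 to 109 and Rps27a 90 to 157 among 30212 genes with a length.

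**Figure D2:**
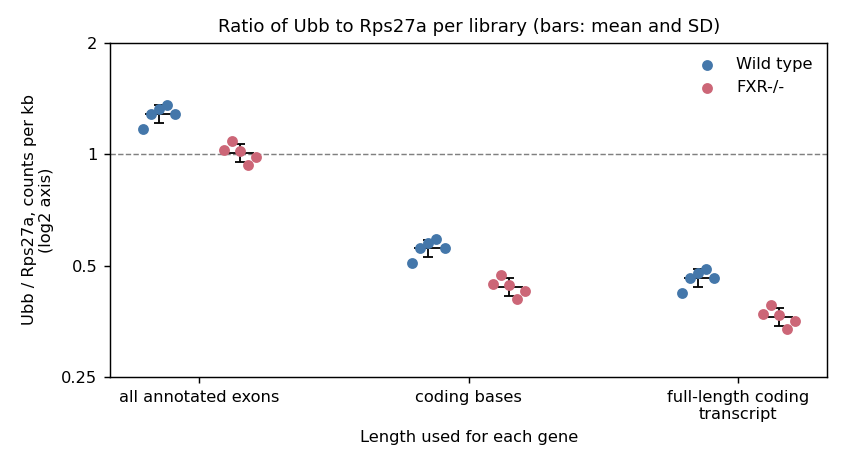
Ratio of Ubb to Rps27a in counts per kb on a log2 vertical axis, for each library of both genotypes, under 3 gene lengths on the horizontal axis, with mean and SD as bars. Knockout means lie below wild-type means under each length (1.01 against 1.28, 0.439 against 0.557 and 0.365 against 0.463), and values above 1 occur only when all annotated exons are counted.

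The other protein encoded by Rps27a belongs to the small ribosomal subunit. Of 31 other genes of this subunit, 12 rose, none fell and 19 did not pass by edgeR's quasi-likelihood test. The share called was 38.7%, against 13.9% of all tested genes in either direction and 6.17% called higher. At an unadjusted p under 0.05 the same test had 18 higher and 0 lower, against 2774 higher and 2788 lower of all 18559 genes. DESeq2 with adjustment called 14 higher and 0 lower, against 1553 higher and 1949 lower of all 20586 genes. The median log2 fold change of the list was 0.14, against 0.01 for all tested genes, and under library totals alone 0.17 with 17 higher, against 0.05 for all genes. Rps15a rose from 323 to 352 CPM in wild type to 403 to 446 CPM in knockout, without overlap (1.25-fold, edgeR adjusted p = 0.00057). Rps24 rose 1.21-fold and Rps20 1.19-fold (edgeR adjusted p = 0.00315 and 0.00335), and neither overlapped between genotypes. The largest fitted changes were those of Rps26 (0.34) and Rps27 (0.33), named to complete the list. Rps2 had the lowest at -0.07 and did not pass. Rps27a at 0.24 had 6 of these genes above it and 25 below. The CPM of Rps27a was also set against the summed CPM of the 31 other genes, a sum that does not include Rps27a. It equalled 3.40 ± 0.136% of that sum in wild type and 3.68 ± 0.180% in knockout (SD over 5 mice per genotype), with overlap from 3.52% to 3.56%. Ribosomal protein genes have many processed pseudogenes, so their counts share the uncertainty given for Rps27a.

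**Figure D3:**
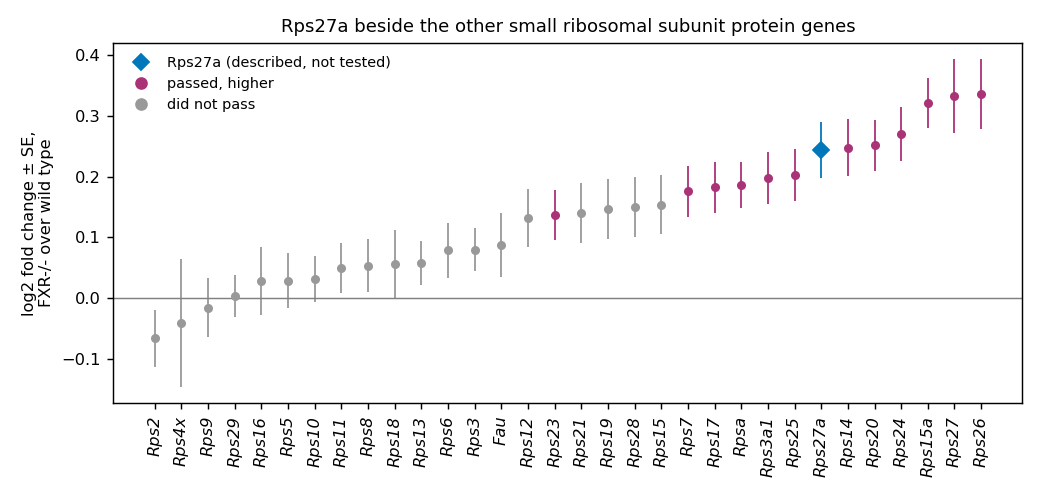
Fitted log2 fold change of knockout over wild type with its SE (vertical axis) for Rps27a and 31 other small ribosomal subunit genes, ordered from lowest to highest on the horizontal axis. Rps27a (diamond, described and not tested) lies at 0.24, with 25 genes to its left and 6 to its right, between Rps2 at -0.07 and Rps26 at 0.34.

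Activating and conjugating enzymes load ubiquitin onto proteins. Of 31 ubiquitin-activating and ubiquitin-conjugating enzymes, 4 fell, 0 rose and 27 did not pass. The share called was 12.9%, near the 13.9% of all tested genes in either direction, with 7.71% called lower. The list's median log2 fold change was 0.02, against 0.01 for all tested genes. At an unadjusted p under 0.05 by edgeR 4 were higher, and DESeq2 called 1 higher and 5 lower with adjustment. Library totals gave 1 higher and 2 lower, and upper-quartile factors 1 higher and 3 lower. Uba1, the main ubiquitin-activating enzyme, stood at 452, 461, 472, 476 and 458 CPM in wild-type libraries 3, 4, 5, 6 and 9 and at 448, 408, 434, 400 and 404 CPM in knockout libraries 8 to 12. It fell 1.11-fold without overlap (edgeR adjusted p = 0.0325), but did not pass without knockout library 9, 11 or 12 or wild-type library 4, 5, 6 or 9 (edgeR adjusted p up to 0.0913), nor with library totals as scaling. The conjugating enzyme genes Ube2d1 (37.0 ± 2.07 to 30.3 ± 3.06 CPM) and Ube2h (117 ± 3.75 to 103 ± 5.26 CPM; SD over 5 mice per genotype) fell as well (edgeR adjusted p = 0.0201 and 0.0206). Ube2e3 fell 1.10-fold. Ube2b, a conjugating enzyme needed for normal spermatogenesis and named after its values were seen, stood at 156 ± 9.10 and 163 ± 4.55 CPM (SD over 5 mice per genotype) and did not pass. The 4 calls dropped to 0 without knockout library 11 (edgeR, with 5 lower at an unadjusted p under 0.05), to 1 without knockout library 12, and to 2 without knockout library 9 or wild-type library 4, 6 or 9.

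Ubiquitin ligases choose the proteins that receive ubiquitin. Of 48, 3 fell, 1 rose and 44 did not pass (8.33% called, against 13.9% of all tested genes). Keap1, which targets the oxidative stress factor NRF2, fell 1.16-fold from 47.1 ± 2.22 to 40.5 ± 2.07 CPM (SD over 5 mice per genotype; edgeR adjusted p = 0.0142) and kept its call under all 16 alternatives. Ubr2, a ligase that male germ cells need for meiosis, fell 1.10-fold (edgeR adjusted p = 0.0287), and its values of 212 to 222 CPM in wild type lay above the 188 to 206 CPM in knockout. Cdc20, an activator of the anaphase-promoting complex, rose 1.17-fold from 67.8 ± 5.52 to 79.5 ± 5.32 CPM (SD over 5 mice per genotype; edgeR adjusted p = 0.0336), without overlap, and Cblb fell 1.11-fold. Cblb lost its call under 11 of 16 alternatives, and Ubr2 and Cdc20 each under 6. The list as a whole did not lean either way, with 26 genes fitted above 0, 22 below and a median log2 fold change of 0.006. With library totals as scaling 3 ligase genes were higher and 1 lower. Under that scaling the share of higher calls among all genes rose too, from 44.5% to 61.5%. The 4 ligase calls of the main fit dropped to 1 without knockout library 11 or 12 or wild-type library 4. They dropped to 2 without wild-type library 3, 5 or 9, and rose to 7 without knockout libraries 9 and 10.

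Deubiquitinases include the enzymes that mature the ubiquitin precursors. Of 47, 3 rose, 3 fell and 41 did not pass (12.8% called, near the 13.9% of all tested genes). Usp44, a deubiquitinase that acts on the mitotic checkpoint and on histone H2B, had the largest fitted change in the 9 pathway lists, from 4.76, 4.55, 5.52, 4.07 and 3.92 CPM in wild-type libraries 3, 4, 5, 6 and 9 to 1.56, 1.82, 1.52, 1.35 and 1.49 CPM in knockout libraries 8 to 12 (2.94-fold lower, edgeR adjusted p = 1.4e-05). Its wild-type values were all above its knockout values. Atxn3 rose 1.15-fold from 53.9 ± 2.56 to 62.0 ± 1.67 CPM (SD over 5 mice per genotype; edgeR adjusted p = 0.0092), and Usp4 fell 1.10-fold (edgeR adjusted p = 0.0359). Zranb1 and Usp1 rose and Usp22 fell. Usp4 and Usp1 each lost their call under 10 of 16 alternatives, Usp22 under 9 and Zranb1 under 6. Of the enzymes known to act on ubiquitin precursors and free chains, named after their values were seen, Usp5 stood at 175 ± 6.37 and 170.2 ± 3.25 CPM, Uchl3 at 33.3 ± 3.20 and 36.2 ± 3.19 CPM, and Otulin at 33.8 ± 1.14 and 32.4 ± 2.48 CPM in wild type and knockout (SD over 5 mice per genotype). None of these 3 passed (edgeR adjusted p = 0.446, 0.314 and 0.504). With library totals 5 deubiquitinases were higher and 1 lower, and with upper-quartile factors 4 and 1. The 6 calls dropped to 2 without knockout library 11 or 12 or wild-type library 4, and to 3 without wild-type library 3 or 9.

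Ubiquitin receptors and shuttles bind ubiquitin, and some of them carry its targets to the proteasome. The list is not confined to that route and also holds autophagy receptors. Of 18 genes, 5 fell, 0 rose and 13 did not pass. The share called was 27.8%, against 13.9% of all tested genes in either direction and 7.71% called lower. No gene of the list was higher at an unadjusted p under 0.05 by edgeR, against 2774 of all 18559 genes. DESeq2 called 8 lower and 0 higher with adjustment, against 1949 lower and 1553 higher of all 20586 genes. The list's median log2 fold change was -0.08, against 0.01 for all tested genes, and -0.04 against 0.05 with library totals. The fallers included 3 ubiquilins, shuttle factors that bind both ubiquitin and the proteasome. Ubqln4 fell from 73.2 ± 3.44 to 62.4 ± 2.75 CPM and Ubqln2 from 153 ± 5.23 to 126 ± 11.2 CPM (SD over 5 mice per genotype; edgeR adjusted p = 0.00755 and 0.00865), and both kept their calls under all 16 alternatives. Rad23b, a shuttle that also serves DNA repair, fell 1.10-fold (edgeR adjusted p = 0.026), with 273 to 288 CPM in wild type above 243 to 267 CPM in knockout. Ubqln1 fell 1.13-fold and the autophagy receptor gene Optn 1.31-fold. Rad23b and Ubqln1 each lost their call under 9 of 16 alternatives, and Optn under 7. The 5 calls dropped to 2 without knockout library 9, 11 or 12 or wild-type library 4, 5 or 9, and to 3 without wild-type library 6.

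The proteasome degrades proteins that carry ubiquitin. Of 40 subunits, 3 rose, 2 fell and 35 did not pass (12.5% called, near the 13.9% of all tested genes). Psmb1, a subunit of the catalytic core, rose from 164, 165, 168, 172 and 176 CPM in wild-type libraries 3, 4, 5, 6 and 9 to 211, 197, 186, 197 and 204 CPM in knockout libraries 8 to 12, without overlap (1.18-fold, edgeR adjusted p = 0.00417). Psma8, the core subunit made in germ cells, rose 1.32-fold from 12.4 ± 1.59 to 16.4 ± 1.80 CPM (SD over 5 mice per genotype; edgeR adjusted p = 0.0249), with overlap between genotypes. Psma4 also rose. Psmd7, of the regulatory particle, fell 1.14-fold (edgeR adjusted p = 0.0191), as did Adrm1, a ubiquitin receptor of the same particle, 1.10-fold. With library totals 7 were higher and 1 lower. The count dropped to 1 without knockout library 11 or 12 and to 2 without wild-type library 4. The summed level of germ cell markers, given above for the same libraries, overlapped between genotypes, and its part in the change of Psma8 was not tested.

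Some ubiquitin-like proteins are attached to targets by related enzymes, and others in the list are not. Of 17 tested, Ubl3 and Gabarapl2 fell, 0 rose and 15 did not pass. The share called was 11.8%, against 13.9% of all tested genes in either direction and 7.71% called lower. By edgeR 1 was higher at an unadjusted p under 0.05, and DESeq2 called 3 lower and 0 higher with adjustment. Ubl3, a membrane-anchored ubiquitin-fold protein, fell from 100.4 ± 3.10 to 83.9 ± 3.93 CPM (SD over 5 mice per genotype; edgeR adjusted p = 0.00284) and kept its call under all 16 alternatives. Gabarapl2, of the autophagy pathway, fell 1.11-fold (edgeR adjusted p = 0.0489) and did not pass when any library other than knockout library 10 was left out (edgeR adjusted p up to 0.118). The list held 1 call without knockout library 8, 11 or 12 or any single wild-type library. Fau, a fusion of a ubiquitin-like protein with a ribosomal protein and thus built like Rps27a, stood at 106 ± 5.04 and 113 ± 7.74 CPM in wild type and knockout (SD over 5 mice per genotype; log2 fold change 0.09, edgeR adjusted p = 0.285, named after its values were seen). It did not pass.

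**Figure D4:**
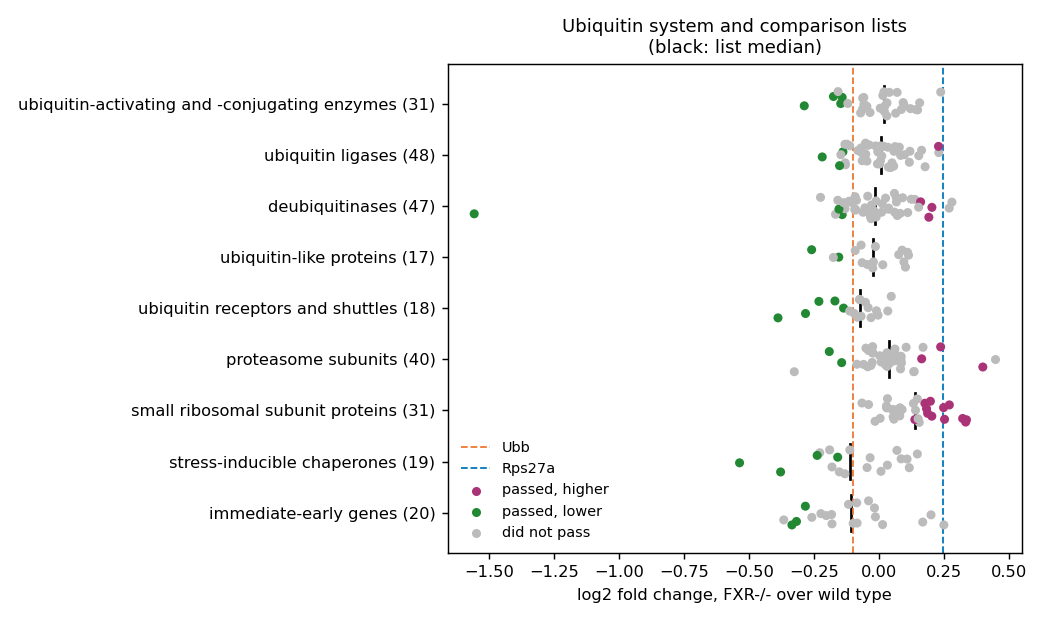
Fitted log2 fold change of knockout over wild type (horizontal axis) for each tested gene of 9 lists (vertical axis, number tested in brackets), coloured by whether it passed the edgeR test and in which direction, with list medians in black and Ubb and Rps27a as dashed lines. Most genes lie near 0, the small ribosomal subunit list has 12 higher and 0 lower, and Usp44 stands apart at -1.56.

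Polyubiquitin genes are inducible by stress, and chaperone and immediate-early genes were therefore read in the same libraries. Of 19 chaperones, a list that holds stress-inducible members and also constitutive ones such as Hsp90ab1, 4 fell, 0 rose and 15 did not pass. The share called was 21.1%, against 13.9% of all tested genes in either direction and 7.71% called lower. The median log2 fold change was -0.11, against 0.01. By edgeR 2 were higher at an unadjusted p under 0.05, and DESeq2 called 1 higher and 5 lower with adjustment. Library totals gave 1 higher and 3 lower, and upper-quartile factors 1 higher and 4 lower. Hspa1a, an inducible HSP70 whose near-identical copy Hspa1b makes its count uncertain, fell 1.45-fold from 10.5 ± 1.07 to 7.25 ± 0.896 CPM (SD over 5 mice per genotype; edgeR adjusted p = 0.00649), without overlap. Hsp90ab1, a constitutive HSP90, fell 1.12-fold from 1691 ± 29.2 to 1515 ± 47.3 CPM (SD over 5 mice per genotype; edgeR adjusted p = 0.0136), also without overlap. Hsp90b1, the HSP90 of the endoplasmic reticulum, fell 1.18-fold (edgeR adjusted p = 0.0259) with overlap, and Hspb1 fell 1.30-fold. Hspb1 lost its call under 9 of 16 alternatives and Hsp90b1 under 5. The count dropped to 2 without knockout library 11 or 12 or wild-type library 4. Of 20 immediate-early genes, Jund (1.26-fold), Klf6 (1.22-fold) and Jun (1.25-fold) fell (edgeR adjusted p = 0.0192, 0.0256 and 0.044), 0 rose and 17 did not pass. Jun lost its call under 10 of 16 alternatives. The share called was 15%, near the 13.9% of all tested genes in either direction, with 7.71% called lower. By edgeR 1 was higher at an unadjusted p under 0.05, and DESeq2 called 4 lower and 0 higher. No immediate-early gene passed without knockout library 11 or 12 (edgeR, with 5 and 4 lower at an unadjusted p under 0.05), and 1 passed without wild-type library 4. These values stand beside the lower Ubb in knockout, and their part in it was not tested.

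The genes whose pattern over the 10 libraries was most like that of each gene were sought among 10556 others with at least 10 CPM, by the root-mean-square difference of log2 CPM after each gene was centred on its mean. For Ubb these were Gak (0.030), a kinase that uncoats clathrin vesicles, Fam193a (0.030), Aggf1 (0.030), an angiogenic factor, and Hsd17b4 (0.033), a peroxisomal enzyme of fatty acid breakdown. The median over all genes was 0.12. For Rps27a they were Cirbp (0.037), a cold-inducible RNA-binding protein, the large ribosomal subunit genes Rpl31 (0.042) and Rpl26 (0.044), and Ssbp1 (0.045), which binds single-stranded mitochondrial DNA, against a median of 0.18. Ubb and Rps27a differed from each other by 0.19 on this scale. Since each gene's difference between genotypes enters this measure, it describes likeness over these libraries only.

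**Figure D5:**
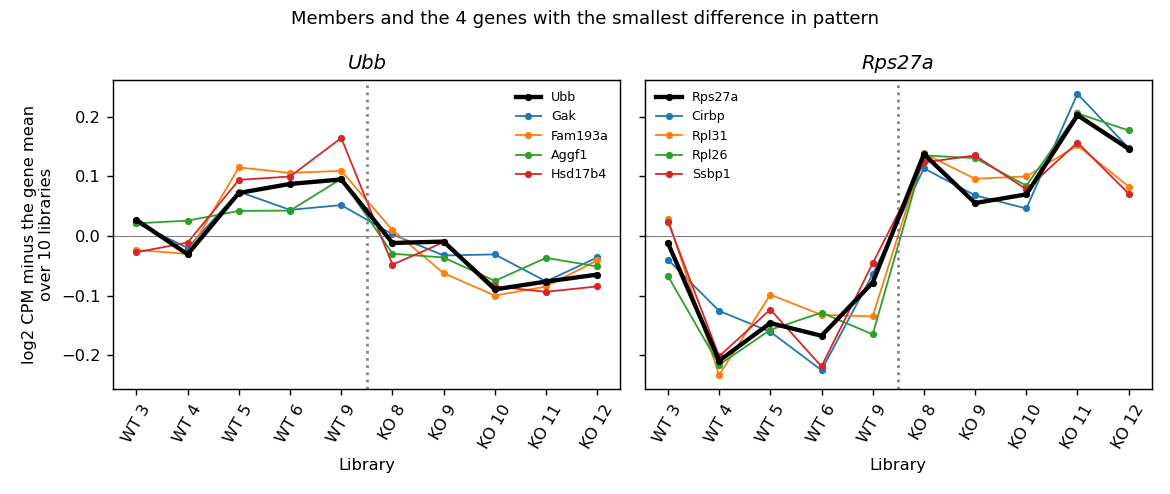
Log2 CPM centred on each gene's mean over the 10 libraries (vertical axis) by library (horizontal axis) for Ubb with its 4 most similar genes (left) and Rps27a with its own (right); lines only join the points of a gene, since libraries have no order. The genes follow Ubb within a root-mean-square difference of 0.030 to 0.033 and Rps27a within 0.037 to 0.045.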

How the data were processed

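RNA from flash-frozen testes (Trizol) was made into libraries with a TruSeq RNA kit, per the labels' protocols. The build mm10 and the tools TopHat2 2.0.10, Bowtie2 2.1.0, Bowtie, FastQC 0.10.1 and CASAVA are named, without role or order, per the submitters' processing notes. The counter is not given in the sources used here, nor is the annotation. Raw read counts per gene, as deposited by the authors, were the only values used. Other ubiquitin-coding genes, and 1 gene first placed in a pathway list, are not reported here.

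Counts were filtered with filterByExpr, scaled with TMM and tested with edgeR 4.0.16 in R 4.3.3 (two-sided quasi-likelihood test with genotype as the only term and Benjamini-Hochberg adjustment over 18559 genes), and DESeq2 1.42.0 served as an alternative. The fit was tested on simulated data. Of 30719 genes, 30212 were matched by identifier to GENCODE M21 (GRCm38) for positions and exon lengths. Ubb, Rps27a and the 9 pathway and 9 marker lists were chosen with earlier results of these data known. Named genes were Ubb, Rps27a, their pseudogenes, Nr1h4, up to 3 called genes per list with the smallest p, and the 4 genes closest in pattern to each of Ubb and Rps27a. Others were named to complete a count or are marked. Fau and Psmd14 stand in 2 lists each. The p-values set the difference between genotypes against the spread between these mice, taken as independent. Whether libraries of a genotype shared litters is not labelled, so that independence is not known.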

Additional observations from a re-analysis of the deposited data

Results flagged for a closer look

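Among the named genes, 74 groups of 5 libraries were checked, and 3 held a value that stood apart from the rest. Chance alone sets about 1 in 20 groups apart in this way, so 3 of 74 is no more than chance would give. Ubqln4 was lowest in wild-type library 9 at 67.3 CPM, with the next wild-type value at 73.8 CPM. Aggf1 was highest in the same library at 119 CPM, with the next at 115 CPM. Nr1h4 was also highest there at 0.783 CPM, with the next at 0.452 CPM. Neither Ubb nor Rps27a had such a value in either genotype.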

How the results depend on the processing

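Under the 17 alternatives for each gene, the log2 fold change of Ubb stayed below 0 (-0.12 to -0.06) and that of Rps27a above 0 (0.22 to 0.28), each within 1 SD of its reported value. The ratio of Ubb to Rps27a per kb was 1.28 in wild type and 1.01 in knockout over annotated exons, 0.557 and 0.439 over coding length, and 0.463 and 0.365 over the full-length coding transcript. It was 1.26 to 1.31 and 0.991 to 1.03 when 1 library was left out.

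With 1 library left out, the count of called genes ran from 1427 to 2867 for all genes, 0 to 6 for activating and conjugating enzymes, 1 to 6 for ligases, 2 to 7 for deubiquitinases, 1 to 2 for ubiquitin-like proteins, 2 to 6 for receptors and shuttles, 1 to 6 for proteasome subunits, 10 to 14 for small ribosomal subunit proteins, 2 to 5 for chaperones and 0 to 4 for immediate-early genes. Without the low-count filter the calls numbered 2 for activating and conjugating enzymes, 2 for ligases, 3 for deubiquitinases, 1 for ubiquitin-like proteins and 3 for receptors and shuttles. With library totals they numbered 1 for ubiquitin-like proteins, 3 for receptors and shuttles and 8 for proteasome subunits, and with upper-quartile factors 1 for ubiquitin-like proteins. DESeq2 called 8 receptors and shuttles. Without knockout libraries 9 and 10, which hold the most adipocyte RNA (chosen after seeing the data), 2 activating and conjugating enzymes and 7 ligases passed. The cause of these shifts was not tested. No paired analysis was made, because no pairing of mice is labelled and the replicate numbers do not give one.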
